A study of Homo sapiens with 17 samples.

Results

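Antisense long noncoding RNAs are taken here as the genes of the 1 h read table whose symbol ends in -AS and a digit and that had at least 100 reads over the 6 libraries labeled with 4-thiouridine (s4U). Members were thus chosen by their name and by measured read totals, so their read totals are given as a description. Of 647 such symbols among 19222 listed genes, 285 passed, beside 13785 genes of any kind. The cells were wild-type (WT) HEK-293T, a line from human embryonic kidney, and the question was how low-dose emetine, which blocks ribosome translocation, changes RNA synthesis and decay. At 1 h there were 3 untreated libraries (UT, 500 µM s4U, no emetine), 3 low-dose emetine libraries (LDE, 500 µM s4U and 1.8 µM emetine) and 1 library of each kind without s4U, all from a kit that selects poly(A) RNA and keeps strand. At 2 h there were UT, LDE (1.8 µM) and high-dose (HDE, 240 µM) samples, 3 each with 250 µM s4U and a total RNA kit, used here only through the authors' mean.

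An antisense RNA is transcribed from the strand opposite a neighboring gene, whose name it carries. Many start close to the promoter of that gene and run away from it, and many are kept in the nucleus and degraded quickly. Most lack a long conserved reading frame, so a drug that stops ribosomes can reach those directly only through short frames that ribosomes happen to read, which is also how some noncoding RNAs become targets of nonsense-mediated decay. In TimeLapse chemistry, s4U that cells built into RNA is read as C where the genome has T, so the conversions in each read separate RNA made during the labeling hour (the fraction new) from RNA that was already there.

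The starts of the longest reading frames of the members that moved are shown because these RNAs were examined as untranslated transcripts. Each line gives 30 transcript bases, 5′ to 3′, of the canonical GENCODE transcript, with the ATG in capitals. The first 4 belong to RNAs that passed a test below, and the last 2 to members that are among the 4 GENCODE (release 44) now annotates as protein-coding, NCBP2-AS2 (now NCBP2AS2) and TOPORS-AS1 (now SMIM27), whose printed ATG is the annotated start.
THAP9-AS1, 87 codons, chr4:82894126-82894155, minus strand: caaagaATGgtaacgtgcttatcatgggag
SLC25A25-AS1, 131 codons, chr9:128117954-128117983, minus strand: tggagaATGgccagtcagcctgaggccacc
MMP25-AS1, 75 codons, chr16:3054948-3054977, minus strand: ctccccATGctcacctcctgcctcttgctc
BAIAP2-AS1, 184 codons, chr17:81031449-81031478, minus strand: cgttttATGcctgtcaagggagcttcctct
NCBP2-AS2, 99 codons, chr3:196942711-196942740, plus strand: gagaagATGgtgctgcggcggctgctggcc
TOPORS-AS1, 55 codons, chr9:32552429-32552458, plus strand: cttaccATGaagccagtaagtcgtcgcacg
All coordinates are on hg38. The frames of THAP9-AS1 and SLC25A25-AS1, like that of NCBP2-AS2, have a purine 3 bases before the ATG and a G right after it, the letters that ribosomes favor at a start, whereas those of MMP25-AS1 and BAIAP2-AS1 have neither. The frames of the 4 RNAs without an annotated start cover 6.20% to 12.4% of their transcripts, and a frame found this way says nothing about whether it is read. Over the members placed in GENCODE the longest frame had a median of 80 codons, and 87 members had one of more than 100 codons, SLC25A25-AS1 and BAIAP2-AS1 among them. FAM83H-AS1, also annotated as protein-coding (IQANK1), had a frame of 560 codons over 93.2% of its transcript.

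In the annotation, 279 of the 285 members could be placed, 216 by their symbol and 63 through a RefSeq synonym. Of these, 270 are lncRNA genes, 4 are protein-coding and 5 are transcribed pseudogenes. Exons of 176 members lie under exons of the gene they are named after, another 31 overlap its body without sharing exon bases, and 64 do not overlap it. Many of the last kind are divergent neighbors: 62 of those 64 start within 1000 bases of their partner's start, as do 59 of the 176 with overlapping exons, and 45 members now carry a -DT (divergent transcript) name. The canonical transcripts are short of exons, with a median of 3, against 9 for all tested genes, and 35 members have a single exon.

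Since many members share exon bases with their partner on the opposite strand, the assignment of reads was examined first. Of the 172 members whose exons lie under exons of a partner that is also in the table, 0 had reads listed as ambiguous between both genes, although ambiguous reads between genes were kept in the table. Over all members, 2 appeared in any ambiguous set, with 635 reads against 590212 reads of the members in 8 libraries. Of all ambiguous reads, 0.328% lay between genes on opposite strands and 87.5% between genes on the same strand, while 12.1% were in sets whose genes could not all be placed on a strand. The counting options were not given in the sources used here. Ambiguous sets cannot show reads placed on the wrong strand, since those would count for a single gene. Such reads were not tested for, and some partners were far higher, as in ENO1-AS1 (0.483 CPM untreated, against 4176 for ENO1). HNRNPU-AS1 was among the 6 members not placed.

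The libraries held 22246279 to 40018063 reads assigned to genes, and the members took 0.224% to 0.261% of them in each of the 8 libraries. A member had a median of 476 reads over the 6 labeled libraries, against 5001 for all tested genes. LRRC75A-AS1 alone, with 78980 reads, held 17.6% of the member reads, 92 members had over 1000 reads, and 64 had fewer than 200. At the threshold, LLPH-AS1 had 100 reads and ENTPD1-AS1 101, just inside, while LCMT1-AS2 had 98 and LAMTOR5-AS1 97, just outside. Of the kidney line's markers, VIM (505 to 637 CPM, reads scaled to a common library size, in the 6 labeled libraries), NEFM (141 to 206), CDH2 (70.8 to 115) and KRT18 (36.5 to 58.1) were abundant, and KRT8 (4.13 to 6.84) and PAX2 (1.17 to 2.49) were low. The leukocyte genes PTPRC and CD3E were at 0, and the erythroid HBG1 and HBG2, the hepatocyte ALB and APOA1 and the fibroblast DCN stayed at or below 0.347 CPM, while COL1A1, another fibroblast gene, was at 19.4 to 27.5 CPM. LDE replicate 3 stood apart, with a standard deviation of 0.261 (log2) from its group mean over genes against 0.0897 to 0.157 in the other 5 libraries, and in fraction new UT replicate 1 was the lowest untreated library. For a number of named RNAs, the value without one of them is given where that changed a call or moved the value by more than 1.5 times.

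Per kilobase of exon, the highest member in untreated cells was VPS9D1-AS1, at 94.7 CPM per kb, followed by LRRC75A-AS1 (49.8), EMC3-AS1 (39.9), NCBP2-AS2 (39.7) and PITPNA-AS1 (25.3). LRRC75A-AS1 is now named SNHG29 and is a host of small nucleolar RNAs, EMC3-AS1 is annotated as a transcribed pseudogene, which can share reads with its copies, and NCBP2-AS2 encodes a small protein. Without division by length, VPS9D1-AS1 was at 156, 179.9 and 162 CPM in the UT libraries and at 147, 164 and 119 CPM in the LDE libraries. LRRC75A-AS1 was at 440.5, 425 and 471 CPM in UT and at 445, 443 and 322 CPM in LDE. In both RNAs the lowest library was LDE replicate 3 and the groups overlapped. The median member was at 0.835 CPM per kb, against 4.44 for all tested genes and 4.68 for the sense partners, and for LINC RNAs (long intergenic noncoding RNAs) it was 0.558. Lengths are those of GENCODE and not of the gene models used for counting, which limits values per kilobase.

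Partners were mostly higher than their antisense RNA. In 192 of 248 pairs with lengths (77.4%) the partner had the higher level per kilobase, with a median partner to antisense ratio of 5.98 over the pairs. In 33 pairs the antisense RNA was more than 2 times higher than its partner per kilobase, among them VPS9D1-AS1 (94.7 against 0.683 CPM per kb for VPS9D1) and LRRC75A-AS1 (49.8 against 0.515 for LRRC75A). Across the 253 pairs with both genes tested, the untreated CPM of a member and of its partner had a Spearman rho of -0.00, as a description over pairs that share libraries.

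Emetine changed the level of 1 of the 285 antisense RNAs at 1 h: THAP9-AS1 rose (edgeR quasi-likelihood test, Benjamini-Hochberg adjusted p under 0.05 over 13785 genes), and 0 fell. This is 0.351% of the members, against 363 raised genes (2.63%) and 6 lowered genes (0.0435%) over all genes tested. At an unadjusted p under 0.05 (edgeR), 8 of 285 members were higher and 5 lower, against 2058 and 958 of 13785 genes. The median log2 fold change of the members was -0.02, against 0.03 for all genes and 0.09 for the sense partners. Of the members 131 were above 0 and 154 below, while 7449 of 13785 genes were above 0. The groups did not overlap in 36 members (12.6%), 21 of them higher with emetine, against 34.7% of all genes. Members had fewer reads than other genes (above), and the part of depth in these shares was not tested. In bulk RNA, fewer cells with a transcript and less of it per cell cannot be told apart. Nothing in the labels says that replicates came from separate cultures, so p-values measure the spread between these samples, which may be technical.

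THAP9-AS1 is a 5-exon transcript at chr4:82893009-82900960 on the minus strand. It starts 276 bases from THAP9, which encodes a protein related to the P element transposase, and 199 of its exon bases lie under THAP9 exons. Its level was 21.8, 24.4 and 24.6 CPM in the UT libraries and 48.3, 56.1 and 47.8 CPM in the LDE libraries, from 522 to 2248 reads each. Every emetine library was above every untreated one, and of the 2 libraries without s4U the untreated one was at 34.3 CPM and the emetine one at 66.7 CPM. The log2 fold change was 1.10 ± 0.11 (SE, edgeR, adjusted p = 0.00367). Leaving out any 1 library gave 1.02 to 1.15, but the adjusted p became 0.0623 without UT replicate 1 and 0.0672 without UT replicate 2, 0.0619 with libraries scaled by spike-in reads (log2 1.75) and 0.242 in junction reads alone (1.94).

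The fraction new of THAP9-AS1 was 64.7%, 67.6% and 71.4% in UT and 52.2%, 51.6% and 52.7% in LDE. The groups did not overlap, although the change of -0.66 ± 0.24 on the logit scale did not pass (limma, adjusted p = 0.102). It passed without UT replicate 1 (limma, adjusted p = 0.00627) and with each library centered on its median (0.0273). The unlabeled level, CPM times the share that was not new, rose by 1.62 ± 0.13 on the log2(CPM + 0.5) scale (limma, adjusted p = 0.000523), and this was the 1 member of 94 past the test, against 787 of 10763 genes (7.31%) higher and 10 (0.0929%) lower in unlabeled level. The labeled level of THAP9-AS1 changed by 0.71 ± 0.23 (limma, adjusted p = 0.104). In labeled level 0 of 94 members passed this test, against 28 genes (0.26%) higher and 68 (0.632%) lower. The partner THAP9 was at 5.99, 4.84 and 4.48 CPM in UT and at 7.37, 7.57 and 9.57 CPM in LDE, also without overlap, with a log2 fold change of 0.67 ± 0.18 (edgeR, adjusted p = 0.0868).

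**Figure D1:**
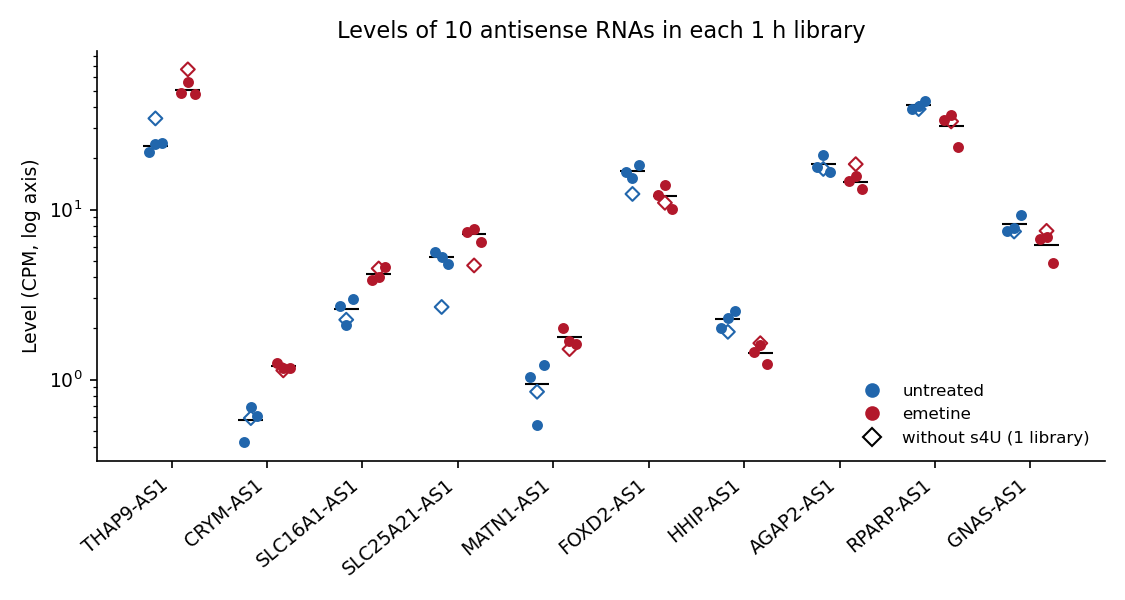
Level in CPM (log axis) of the 5 antisense RNAs with the smallest p in each direction, one dot per labeled library (blue untreated, red emetine, 3 each), black lines for group means and open diamonds for the single libraries without s4U. The mean of THAP9-AS1 was 23.6 CPM untreated and 50.7 CPM with emetine, and the other 9 RNAs did not pass the test.

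The other 4 members with the smallest p among those higher with emetine did not pass. CRYM-AS1, named after the thyroid hormone binding protein mu-crystallin and annotated as the pseudogene ABCA15P, was at 0.430, 0.688 and 0.614 CPM in UT and at 1.26, 1.17 and 1.16 CPM in LDE (log2 1.04 ± 0.28, edgeR, adjusted p = 0.0966). SLC16A1-AS1, next to the lactate transporter gene SLC16A1, was at 2.73, 2.09 and 2.97 CPM in UT and at 3.86, 3.995 and 4.62 CPM in LDE (log2 0.69 ± 0.20, adjusted p = 0.117). In both RNAs, and in MATN1-AS1 and SLC25A21-AS1 below, all emetine libraries lay above all untreated ones. MATN1-AS1, beside the cartilage matrix protein gene MATN1, went from 1.04, 0.544 and 1.23 CPM to 1.999, 1.70 and 1.61 CPM (log2 0.96 ± 0.32, adjusted p = 0.158). SLC25A21-AS1, which has 1 exon and starts 718 bases from the mitochondrial carrier gene SLC25A21, went from 5.59, 5.27 and 4.81 CPM to 7.37, 7.67 and 6.46 CPM (log2 0.45 ± 0.15, adjusted p = 0.151). For their partners the log2 fold changes were -0.36 for CRYM, -0.15 for SLC16A1, -0.12 for MATN1 and 0.10 for SLC25A21, none past the test (adjusted p 0.340 to 0.893). CCDC183-AS1 had the highest log2 fold change of all members, 1.378 ± 0.50 (edgeR, adjusted p = 0.180), through LDE replicate 3 at 4.58 CPM, with the other emetine libraries at 1.66 and 1.15 CPM and the untreated ones at 0.850 to 0.974 CPM (named after its values were seen). Without that library it was 0.59 (adjusted p = 0.207).

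On the lower side the smallest p belonged to FOXD2-AS1, a 1-exon RNA beside the forkhead gene FOXD2. It was at 16.7, 15.4 and 18.2 CPM in UT and at 12.2, 13.9 and 10.1 CPM in LDE, without overlap (log2 -0.47 ± 0.14, edgeR, adjusted p = 0.135), and the forkhead gene itself had a log2 fold change of 0.40 (adjusted p = 0.201). HHIP-AS1, named after the hedgehog-interacting protein gene, went from 2.01, 2.29 and 2.55 CPM to 1.46, 1.598 and 1.24 CPM (log2 -0.66 ± 0.22, adjusted p = 0.161). AGAP2-AS1 had a log2 fold change of -0.34 ± 0.13, RPARP-AS1 of -0.39 ± 0.15 and GNAS-AS1, from the imprinted locus of the stimulatory G protein, of -0.40 ± 0.18 (adjusted p 0.201 to 0.228). In RPARP-AS1 the drop was deepest in LDE replicate 3, at 23.4 CPM against 33.8 and 36.2 CPM in the other LDE libraries and 38.9 to 43.5 CPM in UT. Without LDE replicate 3 the log2 fold changes were -0.22 for RPARP-AS1 and -0.25 for GNAS-AS1 (edgeR, adjusted p 0.0607 and 0.241). Between the libraries without s4U, 1 per group, the log2 ratio of CPM + 0.5 was -0.17 for FOXD2-AS1, -0.17 for HHIP-AS1 and -0.24 for RPARP-AS1. For AGAP2-AS1 (0.09) and GNAS-AS1 (0.01) no drop was seen between those libraries. When libraries were scaled by spike-in reads, which moved the median of all genes to 0.71 and that of the members to 0.62, the values of FOXD2-AS1 (0.19), AGAP2-AS1 (0.30), RPARP-AS1 (0.26) and GNAS-AS1 (0.27) turned positive, still below the median of all genes.

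Without LDE replicate 3, 5 members were raised and 1 lowered. The 5 were THAP9-AS1 (log2 1.15), CRYM-AS1 (1.06), EPB41L4A-AS1 (0.64), SLC25A21-AS1 (0.52) and TRAF3IP2-AS1 (0.35), and the lowered one was FOXD2-AS1 (-0.35). Over all genes 1367 were raised and 527 lowered in that fit. EPB41L4A-AS1, a spliced RNA with 2200 exon bases under exons of EPB41L4A, moved with 1 library. It was at 27.4, 25.4 and 27.05 CPM in UT and at 41.3, 41.4 and 24.1 CPM in LDE, so 2 emetine libraries were above and replicate 3 below all untreated ones. With all libraries its log2 fold change was 0.42 ± 0.19 (edgeR, adjusted p = 0.232), without LDE replicate 3 the adjusted p was 6.06e-05, and the libraries without s4U stood at 31.6 CPM untreated and 56.2 CPM with emetine.

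**Figure D2:**
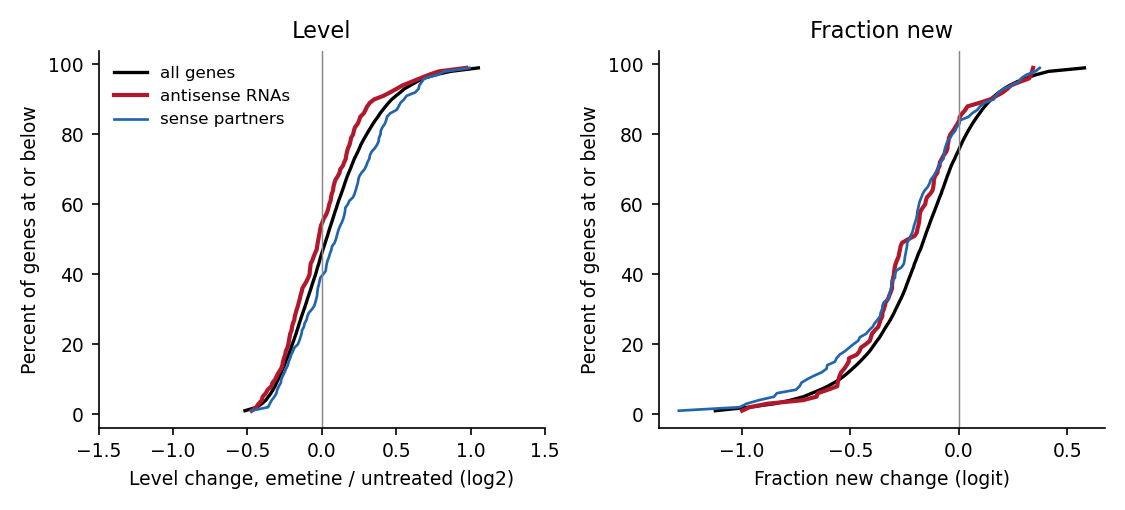
Cumulative distributions of the level change (left, log2 emetine over untreated, 285 antisense RNAs, 252 sense partners and 13785 genes) and of the fraction new change (right, logit scale, 94 antisense RNAs, 214 partners and 10763 genes), drawn from the 1st to the 99th percentile. The antisense line crosses 0 log2 near its median of -0.02, and in fraction new its median was -0.23 against -0.16 for all genes.

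Fraction new was tested in the 94 members with at least 100 reads in each of the 6 labeled libraries, and the other 191 were too shallow. It fell in 3 and rose in 0 with emetine (limma on logit values, adjusted p under 0.05 over 10763 genes), which is 3.19% lower, against 520 genes (4.83%) lower and 23 genes (0.214%) higher. With each library centered on its own median, 748 genes were lower and 126 higher, and 3 members were lower, with THAP9-AS1 in place of MMP25-AS1. At an unadjusted p under 0.05 (limma), 16 of 94 members were lower and 0 higher, against 1655 and 124 of 10763 genes. A value below 0 was found in 78 of 94 members and in 8132 of 10763 genes. All emetine libraries were below all untreated ones in 23 members (16.8% of all genes) and above in 3 (2.19% of all genes). The conversions behind these values were clear of background: the median member had T-to-C changes at 1.99% to 2.61% of T positions in UT and 1.79% to 1.98% in LDE, against 0.0365% and 0.0441% in the libraries without s4U.

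SLC25A25-AS1 had the smallest p of the 3. It lies at chr9:128108581-128118693 on the minus strand, with 665 exon bases under exons of SLC25A25, which encodes a mitochondrial ATP-Mg/phosphate carrier. Its fraction new was 27.1%, 40.5% and 42.2% in UT and 20.2%, 14.9% and 17.6% in LDE, from 149 to 279 reads in each library. The groups did not overlap (logit change -0.99 ± 0.22, limma, adjusted p = 0.00168). Its level was 5.34, 6.85 and 8.31 CPM in UT and 7.91, 6.97 and 9.91 CPM in LDE, which overlap (log2 0.27 ± 0.20, edgeR, adjusted p = 0.417). The partner passed both tests: SLC25A25 rose from 18.9, 20.7 and 19.4 CPM to 29.1, 28.1 and 35.5 CPM (log2 0.65 ± 0.12, edgeR, adjusted p = 0.0281), with 75.9% ± 6.38 new in UT and 53.8% ± 2.37 in LDE (SD, n = 3). That drop of the fraction new passed too (logit -1.01 ± 0.25, limma, adjusted p = 0.00731). Of the pairs with both genes tested for fraction new, this was the only one in which both fell past the test.

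MMP25-AS1, with 1454 exon bases under exons of the membrane-type metalloproteinase gene MMP25, lies at chr16:3037400-3059370 on the minus strand. Its fraction new was 12.9%, 11.4% and 16.4% in UT and 3.67%, 8.16% and 5.81% in LDE (logit -0.96 ± 0.22, limma, adjusted p = 0.00327). Its level did not differ beyond its spread, at 7.93 to 9.37 CPM in UT and 6.27 to 10.1 CPM in LDE (log2 -0.02 ± 0.19). BAIAP2-AS1, a divergent RNA at chr17:81029130-81034881 that starts 241 bases from BAIAP2, an adaptor of actin and membranes, had 12.3%, 17.5% and 24.2% new in UT and 7.13%, 9.95% and 7.81% in LDE (logit -0.86 ± 0.22, limma, adjusted p = 0.00737). Neither RNA's groups overlapped in fraction new. The level of BAIAP2-AS1 was 9.16 to 11.3 CPM in UT and 9.37 to 10.6 CPM in LDE (log2 -0.08 ± 0.14). In labeled level the 2 RNAs had log2 changes of -0.75 ± 0.28 and -0.81 ± 0.28, neither past the test (limma, adjusted p 0.180 and 0.146), and in unlabeled level of 0.07 and 0.08.

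These 3 calls rest on few libraries. Without UT replicate 3, 0 of the 3 passed by limma (adjusted p 0.0681 to 0.139), with 94 genes lower over the whole table, and without LDE replicate 1 SLC25A25-AS1 alone did. SLC25A25-AS1 was also lost without LDE replicate 2 (adjusted p = 0.0608), BAIAP2-AS1 without UT replicate 2 (0.0641) or LDE replicate 3 (0.0634), and MMP25-AS1 with each library centered on its median (0.0598). Without UT replicate 1, the untreated library with the lowest fraction new (median over members 21.2%, against 25.5% and 31.2% in UT replicates 2 and 3, and 20.2% to 21.7% in LDE), 23 members were lower and 2 higher, beside 2524 genes lower and 41 higher.

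LBX1-AS1, a divergent RNA that starts 114 bases from the homeobox gene LBX1, had the lowest logit change of all 94 (-1.10 ± 0.53, limma, adjusted p = 0.423; named after its values were seen). It was 13.4%, 20.5% and 22.6% new in UT and 2.59%, 9.09% and 13.95% in LDE, so the groups overlapped, and it passed without UT replicate 2, LDE replicate 2 or LDE replicate 3 (adjusted p 1.99e-05 to 0.0220).

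TTC28-AS1 and ZBED5-AS1 followed in p on the lower side. TTC28-AS1 had 19.5%, 26.3% and 31.0% new in UT and 11.6%, 18.8% and 15.5% in LDE (logit -0.65 ± 0.21, limma, adjusted p = 0.0578). It passed without UT replicate 1 (logit -0.82, limma, adjusted p = 0.0174). ZBED5-AS1 had 6.66%, 8.11% and 7.43% in UT and 4.46%, 5.99% and 2.34% in LDE (logit -0.65 ± 0.23, adjusted p = 0.0856). In both, every emetine library was below every untreated one, but without LDE replicate 3 the change of ZBED5-AS1 was -0.38 (limma, adjusted p = 0.730). The partner ZBED5, from a family derived from transposons, rose in level (log2 0.38, edgeR, adjusted p = 0.0492), while its antisense RNA had a log2 fold change of -0.17.

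Of the 5 members with the smallest p for a higher fraction new, 3 had no overlap between groups. EPB41L4A-AS1 had 38.9%, 36.9% and 35.4% new in UT and 46.3%, 46.8% and 45.7% in LDE (logit 0.38 ± 0.22, limma, adjusted p = 0.419). THUMPD3-AS1, named after a tRNA methyltransferase gene, had 49.1%, 43.5% and 44.4% in UT and 51.9%, 55.8% and 54.6% in LDE (logit 0.34 ± 0.23, adjusted p = 0.521). LRRC75A-AS1, with the deepest counts, had 11.1%, 10.9% and 11.5% in UT and 14.5%, 15.5% and 14.6% in LDE (logit 0.33 ± 0.21, adjusted p = 0.462). EPB41L4A-AS1 and THUMPD3-AS1 passed without UT replicate 1 (limma, adjusted p 0.0294 and 0.0383). PXN-AS1 (8.01% to 12.4% in UT, 11.8% to 16.7% in LDE) and RAB30-AS1 (9.85% to 11.6% in UT, 11.0% to 20.8% in LDE) overlapped. The logit change of PXN-AS1 was 0.34 and, without UT replicate 2, 0.19, and that of RAB30-AS1 was 0.32 and, without LDE replicate 3, 0.09.

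**Figure D3:**
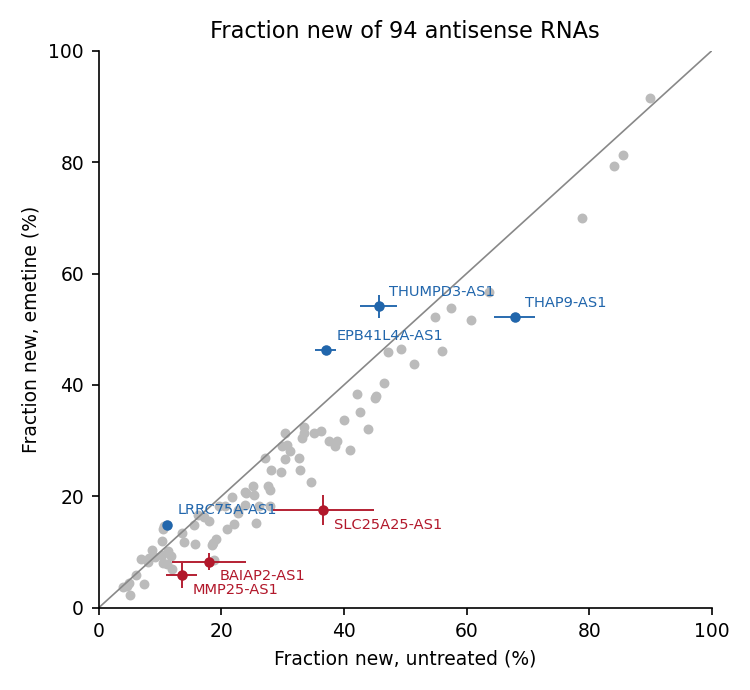
Mean fraction new (percent of an RNA made in the labeling hour) in untreated and emetine-treated cells for 94 antisense RNAs, with the diagonal of equal values. Red marks the 3 RNAs past the test and blue 4 others named in the text, with bars for the standard deviation over 3 libraries. Most points lie below the diagonal, with SLC25A25-AS1 at 36.6% against 17.6% and THAP9-AS1 at 67.9% against 52.2%.

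In untreated cells 74 of the 94 antisense RNAs deep enough to test had a half-life below the median of all genes and 20 one above it. The members' half-life, from the fraction new after 1 h under steady state, had a median of 2.38 ± 0.53 h (SD over 3 libraries of each library's median), with 2.91, 2.36 and 1.85 h in UT replicates 1, 2 and 3. For all 10763 genes it was 5.58 ± 1.41 h, for the 214 sense partners 4.33 ± 1.22 h, for 35 LINC RNAs 3.61 ± 0.59 h and for 19 snoRNA host genes (SNHG genes, GAS5 and ZFAS1) 0.958 ± 0.107 h. In each of the 3 UT libraries the members' median lay above that of the snoRNA host genes and below those of the LINC RNAs, partners and all genes, while LINC RNAs (3.36 h) and partners (3.24 h) changed places in UT replicate 3. A half-life under 2 h was found for 40 of 94 members (42.6%) and for 14.4% of all genes. The middle 50% of the members ran from 1.53 to 4.62 h. Members were low in level, with a median of 2.46 CPM over all 285, against 25.6 for all tested genes. Both medians include genes too shallow for a half-life, among them 191 of the members. Spearman's rho between CPM and fraction new was -0.41 over 10763 genes and 0.01 over the 94 members. Half-lives were not compared at matched levels or matched shares of junction reads (below), so the part of either in these differences was not tested.

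The shortest half-lives belonged to NFYC-AS1 (0.303 ± 0.0327 h, SD, n = 3), CAPN10-AS1 (0.359 ± 0.0722 h), KMT2E-AS1 (0.377 ± 0.0554 h) and SLC25A21-AS1 (0.450 ± 0.107 h). NFYC-AS1 has 1 exon, starts 426 bases from NFYC, a subunit of the CCAAT-binding factor NF-Y, and was 87.0%, 91.0% and 91.6% new in UT and 94.9%, 89.0% and 90.7% in LDE. CAPN10-AS1, now CAPN10-DT, starts 35 bases from the calpain gene CAPN10 and was 79.7% to 90.8% new in UT. KMT2E-AS1 was 79.6% to 88.0% new. In UT the ranges of the fraction new of these 4 RNAs overlapped one another, except that every value of NFYC-AS1 was above every value of SLC25A21-AS1. Their partners were slower: the half-life was 5.29 h for NFYC, 4.92 h for CAPN10 and 1.25 h for KMT2E, while SLC25A21 was too shallow. In LDE the fraction new stayed at 68.5% or more in all 4.

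At the slow end the fraction new was close to background, which makes a half-life uncertain. EP300-AS1 was 0.701%, 3.87% and 7.24% new in UT, VPS9D1-AS1 3.04%, 3.73% and 7.10%, PIK3CD-AS2 3.12%, 4.10% and 7.72%, and NUTM2A-AS1 0%, 5.67% and 9.89%. In each of them UT replicate 3 was the highest. VPS9D1-AS1, with the most reads of the 4, gave a half-life of 16.7 ± 6.65 h and PIK3CD-AS2 one of 15.7 ± 6.66 h, and no half-life is given for the other 2, whose lowest library was under 1% new. Of the 3 protein-coding members tested, MMP24-AS1 (now MMP24OS) was 8.21% ± 1.61 (SD, n = 3) new and TOPORS-AS1 6.89% ± 1.29, whereas NCBP2-AS2 was 42.6% ± 4.09 new.

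**Figure D4:**
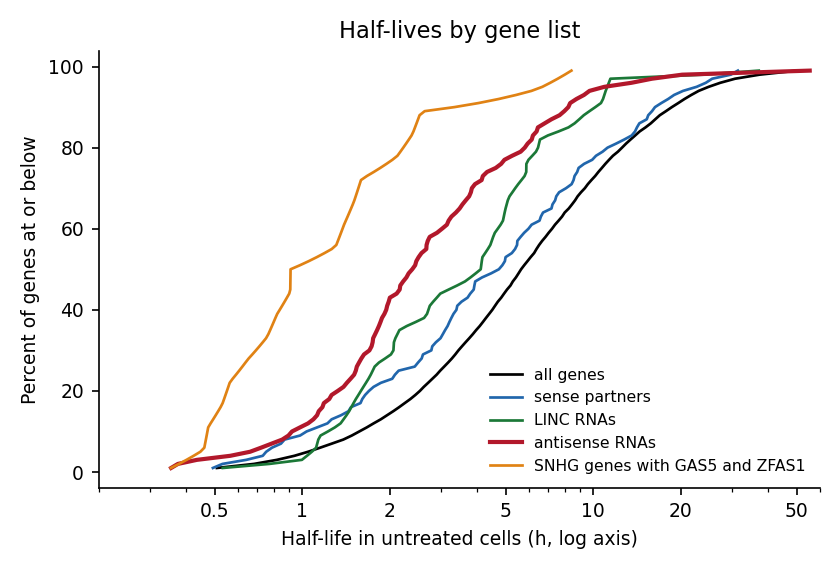
Cumulative distributions of the half-life in untreated cells (hours, log axis, mean of 3 libraries per gene) for 94 antisense RNAs, 35 LINC RNAs, 19 snoRNA host genes, 214 sense partners and 10763 genes, drawn from the 1st to the 99th percentile. The antisense line lies left of those for LINC RNAs, partners and all genes over most of its length and right of the snoRNA host genes.

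In pairs tested for fraction new on both strands, the antisense RNA had the higher fraction new in 48 of 71, with medians of 27.9% for the antisense RNAs and 15.2% for their partners in UT. Spearman's rho between the 2 values over the pairs was 0.09, as a description. Between the level changes with emetine it was -0.01 over 253 pairs, which share their libraries. Of the partners, 12 of 252 were raised (4.76%, against 2.63% of all genes), namely ARRDC3, CCNT2, GATA6, INTS6, MID1IP1, PAXBP1, RASSF1, SLC25A25, ZBED5, ZNF337, ZNF503 and ZNF561, and none of their antisense RNAs passed. Those antisense RNAs had log2 fold changes from -0.31 (INTS6-AS1) to 0.31 (ARRDC3-AS1). Few reads limit the test for some of them, such as ARRDC3-AS1 (1.00 CPM untreated), INTS6-AS1 (1.02) and MID1IP1-AS1 (0.734). Others stood higher, such as ZBED5-AS1 (10.1 CPM in the untreated library without s4U). In fraction new, 17 of 214 partners fell (7.94%, against 4.83% of all genes), and of their antisense RNAs that were tested only SLC25A25-AS1 fell past the test.

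Members that start within 1000 bases of their partner had a median fraction new of 30.1%, 29.7% and 37.1% in UT replicates 1 to 3 (n = 38), and those that start farther away 16.9%, 20.2% and 25.02% (n = 51), so that the former were higher in each library. With emetine the medians were 25.3% to 28.2% and 14.5% to 16.7%. The median level change was -0.04 for the 126 near and -0.01 for the 145 far members, the near ones including THAP9-AS1. These are descriptions over genes, which are not replicates, and their part in each other was not tested.

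A median of 10.4% of a member's reads crossed a junction, against 26.1% for all genes, and the near members were at 6.11% against 12.3% for the far ones among those tested for fraction new. Over the 94 members Spearman's rho between the junction share and the untreated fraction new was -0.62, and over all 10763 genes it was -0.59, across genes that share libraries and differ in depth and in exon number. The 14 members whose canonical transcript has 1 exon were 37.3% to 53.5% new (medians in the 3 UT libraries), and the 78 with more exons 18.6% to 27.4%. In 11 of the 13 members with at least 100 junction reads in each library, the fraction new of junction reads was below that of all reads, with medians of 13.02% and 18.7%, and in OIP5-AS1 and VPS9D1-AS1 it was above. All genes with as many junction reads had medians of 6.79% and 8.79%. ARRDC1-AS1 was an example, 13.98% ± 0.910 new in junction reads and 25.1% ± 5.69 in all reads (SD, n = 3), and EPB41L4A-AS1, 35.6% and 37.1%, had the highest value of the 13 in junction reads. Whether unspliced precursor or genes overlapping on the same strand took part in this was not tested.

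**Figure D5:**
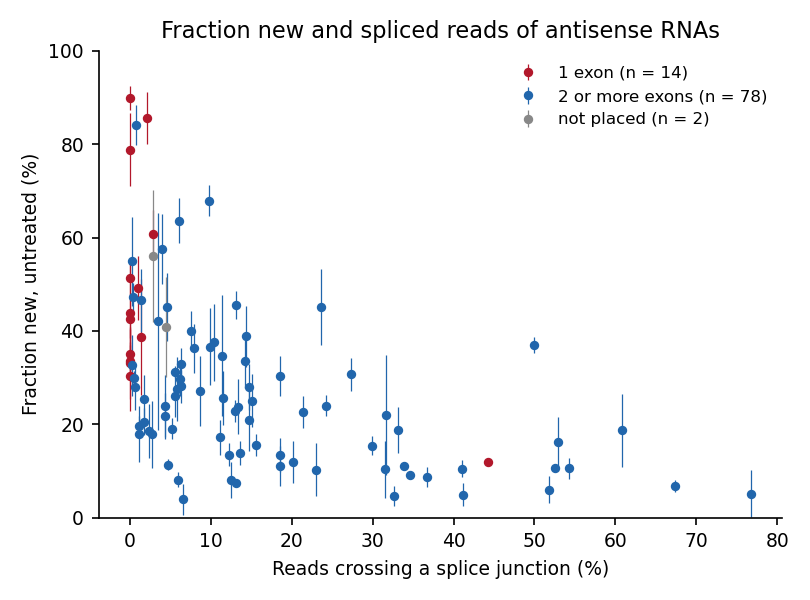
Fraction new in untreated cells (percent, mean and standard deviation of 3 libraries) against the percent of reads that cross a splice junction for 94 antisense RNAs, red for a canonical transcript of 1 exon, blue for 2 or more and grey for 2 not placed. Members with under 5% junction reads span 11.4% to 89.9% new, and those above 50% junction reads are at most 18.7% new.

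Of the well-known members listed, OIP5-AS1, the conserved RNA also called cyrano, was at 30.9, 32.4 and 31.2 CPM in UT and at 29.6, 27.9 and 27.8 CPM in LDE (log2 -0.15 ± 0.09, edgeR, adjusted p = 0.334), without overlap but by a small step. ZEB1-AS1, beside the gene of a repressor of epithelial genes, was 46.6% ± 6.75 new in UT (SD, n = 3) and had a log2 fold change of 0.19 ± 0.14. GABPB1-AS1 was 57.5% ± 7.47 new, with a log2 fold change of -0.08 ± 0.13, and TTN-AS1, antisense to the giant muscle gene titin, was 22.7% ± 3.45 new with 0.26 ± 0.18. CDKN2B-AS1 (ANRIL, at the cyclin-dependent kinase inhibitor locus) was at 1.61, 1.75 and 1.56 CPM in UT and at 2.06, 2.05 and 2.36 CPM in LDE, all higher with emetine (log2 0.39 ± 0.21, adjusted p = 0.287). MCM3AP-AS1 was at 1.58 to 1.86 CPM in UT and at 1.94, 1.92 and 4.20 CPM in LDE, where LDE replicate 3 again was the one apart (log2 0.61 ± 0.33, adjusted p = 0.297, and 0.16 without that library, adjusted p = 0.720). Both were too shallow for fraction new.

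The 2 libraries without s4U gave a further view of the most labeled members, with 1 library per group and no test. For the 531 genes over 50% new, the median log2 ratio of the untreated libraries with s4U over the one without was -0.19 (419 below 0). The 11 members over 50% new had a median of 0.26, with 2 below 0, THAP9-AS1 (-0.53) and HNRNPU-AS1 (-0.80). KMT2E-AS1 was at 9.59 CPM with s4U (mean of 3) and at 3.99 CPM without (log2 1.17), and SLC25A21-AS1 at 5.23 and 2.67 CPM (log2 0.85). With emetine, KMT2E-AS1 and SLC25A21-AS1 again stood higher with s4U, by 1.10 and 0.56. For members under 10% new the median was 0.00 (n = 11).

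In the 2 h tables, which list 9982 genes with the same authors' mean in both, 47 of the 285 members were present (16.5%), against 72.2% of all genes tested at 1 h. The lowest authors' mean listed was 114 normalized counts, so genes below that level are not seen in these tables. Over the 47 members the authors' mean had a median of 268, against 845 for all listed genes. The highest were HNRNPU-AS1 (2035), FGD5-AS1 (1955), LRRC75A-AS1 (1826) and THAP9-AS1 (1099), and of the RNAs with a lower fraction new SLC25A25-AS1 (181) and BAIAP2-AS1 (147) were listed, while MMP25-AS1 was not. These means pool all 2 h conditions and do not show a response.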

How the data were processed

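Per the study's methods, 1 h reads were trimmed with cutadapt, mapped to hg38 with hisat-3n and tabulated with bam2bakR. The authors deposited read counts per library, gene, junction status, T positions and T-to-C conversions. The gene annotation and the strand option are not given in the sources used here. The deposited 2 h tables hold the authors' mean signal, counts (htseq-count) scaled by spike-in size factors and averaged with DESeq2, which is used, and their fold changes and p-values, which are not. Reads per gene were summed here. Reads without a gene (16.0% to 17.2%), ambiguous reads (0.976% to 1.09%) and spike-in reads (0.304% to 0.728%) stayed out of library sizes.

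Levels were tested in R 4.3.3 with edgeR 4.0.16 (TMM, quasi-likelihood, genes with at least 100 reads over 6 libraries), and CPM are TMM-scaled over 8 libraries. Fraction new was fitted per gene and library (at least 100 reads in each) as a mixture of binomials, with the background rate from the library without s4U of the same treatment and 1 new-read rate per library. It was bounded to 0.001 and 0.999, taken to the logit scale and tested with limma 3.58.1 (trend, robust). Labeled and unlabeled levels are log2(CPM × share + 0.5), tested with limma, which understates changes of low genes. Half-life is -ln 2 / ln(1 - fraction new) for 1 h, with no correction for growth. Adjustment was Benjamini-Hochberg over all genes, at 0.05. Scripts were tested on simulated data. There the level test recovered 95.5% of 200 genes changed by 1.5 (log2). The fraction new test recovered 63% of 200 genes changed by 1 (logit), so it missed many changes of that size. GENCODE release 44 and RefSeq synonyms gave positions and partners (symbol stem). Correlations of deviations of same-numbered libraries ran from -0.187 to 0.0603, and those of differently numbered ones from -0.25 to 0.17. With 3 libraries per group these values cannot show whether the samples were paired, and the main fits used no pairing.

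Members and lists were chosen with earlier results of these data known. Named were members past a test, the 5 smallest p in each direction of both tests, the 5 highest levels per kilobase, the 4 shortest and longest half-lives, the 2 just inside and outside the threshold, 9 listed RNAs (HOXA-AS2 was no member) and partners of these. Of the lists, 0 genes ending in -DT were in the table, -IT genes numbered 5, with 0 raised or lowered and 1 tested for fraction new, which did not pass, LINC RNAs had 1 of 115 raised and 1 of 35 with lower fraction new, and snoRNA host genes 0 of 20 and 3 of 19. Another cell type marker on the list is not reported here.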

Additional observations from a re-analysis of the deposited data

How the results depend on the processing

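Of the level calls, 1 raised and 0 lowered, the count stood with other size factors, without the filter on low counts, with spike-in scaling (where the 1 was CCDC183-AS1 and THAP9-AS1 had an adjusted p of 0.0619), and was 0 raised with junction reads only (104 members) while the DESeq2 Wald test added 1 lowered, FOXD2-AS1. Leaving out 1 library in turn gave 0 to 5 raised and 0 to 1 lowered. Fraction new gave 3 lower and 0 higher, and 4 lower with at least 50 reads (H1FX-AS1 added). It gave 0 lower with at least 500 reads in each library (17 members) or junction reads only (13 members). SLC25A25-AS1, MMP25-AS1 and BAIAP2-AS1 were too shallow for either of these subsets, so their calls were not retested there. Weighting by read counts gave 6 lower, and leaving out 1 library gave 0 to 23 lower and 0 to 2 higher. For labeled level leaving out 1 library gave 0 to 3 higher, and for unlabeled level 1 to 5. The median half-life stayed between 2.11 and 2.64 h without any 1 UT library, 2.56 h with at least 50 reads and 2.38 h in the other 2 alternatives. Spike-in scaling reversed FOXD2-AS1 (0.19), AGAP2-AS1 (0.30), RPARP-AS1 (0.26) and GNAS-AS1 (0.27). With a replicate block the counts were 1 raised, 0 lowered, 4 with lower fraction new (LBX1-AS1 added) and 1 with higher unlabeled level, and over all genes 74 were raised in place of 363, although the numbers share nothing the labels name. Over all genes, DESeq2 called 819 higher and 154 lower (edgeR 363 and 6), spike-in scaling 60 and 0, junction reads 2 and 0, and leaving out 1 library 4 to 1367 and 0 to 527. In fraction new, 520 genes were lower and 23 higher, against 298 and 14 with at least 50 reads, 227 and 14 with at least 500, 748 and 126 centered, 720 and 39 weighted, 647 and 40 with the block, 0 and 0 in junction reads, and 94 to 2524 and 10 to 41 leaving out 1 library. For the 4 single RNAs with a call, 35 of their alternative values kept it and 13 lost it. For the named RNAs without a call, 177 values stayed without one, 8 gained one and 4 changed sign, those under spike-in scaling, which moved the median of all genes to 0.71. Causes were not tested. Depth is the limit for the 191 members without a fraction new.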
